A study of Homo sapiens with 4 samples.

Results

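The comparison set 2 untreated human carcinoma cell lines side by side: H1299, from non-small cell lung cancer, and HCT116, from colorectal cancer. Members were the cells whose barcode names carried the label of either solvent (DMSO) library, 7236 of 15289 cells in all, with 3578 H1299 cells and 3658 HCT116 cells. The study profiled both lines by droplet single-cell RNA sequencing of transcript 5′ ends, after DMSO or after 2 inhibitors, and counted genes and transposable elements. In the treated libraries, which enter here only as side values, cells had received 500 nM DAC for 72 h and 500 nM SB939 for 18 h. DAC (decitabine) inhibits DNA methyltransferases and SB939 (pracinostat) inhibits histone deacetylases. Cells were at passage 5 to 10 in each library. H1299 grew in RPMI 1640 and HCT116 in McCoy's 5A, so line and medium cannot be told apart. With 1 library per group there is no replicate check: no test was made, and all intervals are 95% intervals for counting error only.

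Carcinoma lines differ in how much of the epithelial programme they keep. Epithelial cells hold together through cadherins, claudins and desmosomes and carry the surface protein EpCAM, whereas mesenchymal cells rely on vimentin filaments and contacts with the matrix. HCT116 is known as a line with an activating β-catenin mutation and defective mismatch repair. Lines also differ in which genes are shut by promoter DNA methylation, a mark that DAC removes as cells divide. Mutations, proteins and DNA methylation were not measured here.

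The H1299 library held 64524196 counts and the HCT116 library 62639099, with medians of 17369.5 and 16257.5 counts per cell. Mitochondrial transcripts made up a median of 8.33% of a cell's counts in H1299 and 15.8% in HCT116, and 91 and 364 cells lay above 25%. The libraries shared 22 cell barcodes. Both lines were thinned to 10100 counts per cell wherever cells were compared, which left out 309 H1299 and 355 HCT116 cells; thinned cells held a median of 3153 and 2968 gene names. Of 14 immune and endothelial markers, 13 were under the count minimum used below.

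The 4 marker genes differed widely between the libraries. They were chosen with earlier results of these data known, so their split is a description and not a check of the labels. AXL, a receptor tyrosine kinase of migratory cells, had 13166 counts in H1299 and 1392 in HCT116, a log2 ratio of 3.20 (3.12 to 3.28). G0S2, an inhibitor of triglyceride breakdown, had 31440 counts in H1299 and 0 in HCT116, a log2 ratio of 13.31 with the 0 set to 3 counts. The reverse held for EPCAM, with 1 count in H1299 and 5054 in HCT116, and a log2 ratio of -12.35 (-17.65 to -9.87). S100A6, a calcium-binding protein, had 0 counts in H1299 and 171505 in HCT116. Its log2 ratio was -15.85 with the 0 set to 3 counts, and the upper end of its interval was -15.55. AXL was thus the marker present in both lines, and the other three were nearly or wholly restricted to 1 library. Here and below a ratio is the CPM in H1299 over that in HCT116, where CPM is a count scaled to a total of 1000000 gene plus transposable element counts per library. A library at 0 was set to 3 counts, so its ratio depends on that setting and is not an exact limit.

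Single cells showed the same split. S100A6 was counted in 3657 of 3658 HCT116 cells and in 0 of 3578 H1299 cells, which allows a share of cells with a count of up to 0.0838%. This limit, 3 cells of the total, says nothing of cells that express a gene below detection. G0S2 was counted in 2716 H1299 cells, 75.9%, and in 0 of 3658 HCT116 cells, with a limit of 0.082%. EPCAM was counted in 57.1% of HCT116 cells and in 1 H1299 cell. AXL reached 77.9% of H1299 cells and 26.4% of HCT116 cells, and 67.9% and 18.0% after thinning. AXL alone of the 4 was found in a sizeable share of cells of both lines.

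Across the transcriptome, 13795 genes had at least 100 counts in one library or the other. Of these, 1368 (9.92%) were at least 4-fold higher in H1299 and 1119 (8.11%) at least 4-fold higher in HCT116. The median log2 ratio was 0.11. Among the genes called, 434 of those higher in H1299 had 0 counts in HCT116, and 131 of those higher in HCT116 had 0 in H1299. Some features carry a number after the gene name and are listed only from 10 counts per library. A 0 in such a feature can thus hide a lower count. Keeping numbered features only where both libraries listed them gave 1208 and 900 genes called. Of those, 1171 and 887 were among the 1368 and 1119, so part of the calls rests on features that 1 library does not list. In the scatter of gene levels the called genes continue outward from the diagonal, and those at 0 in 1 library line up at its floor.

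**Figure D1:**
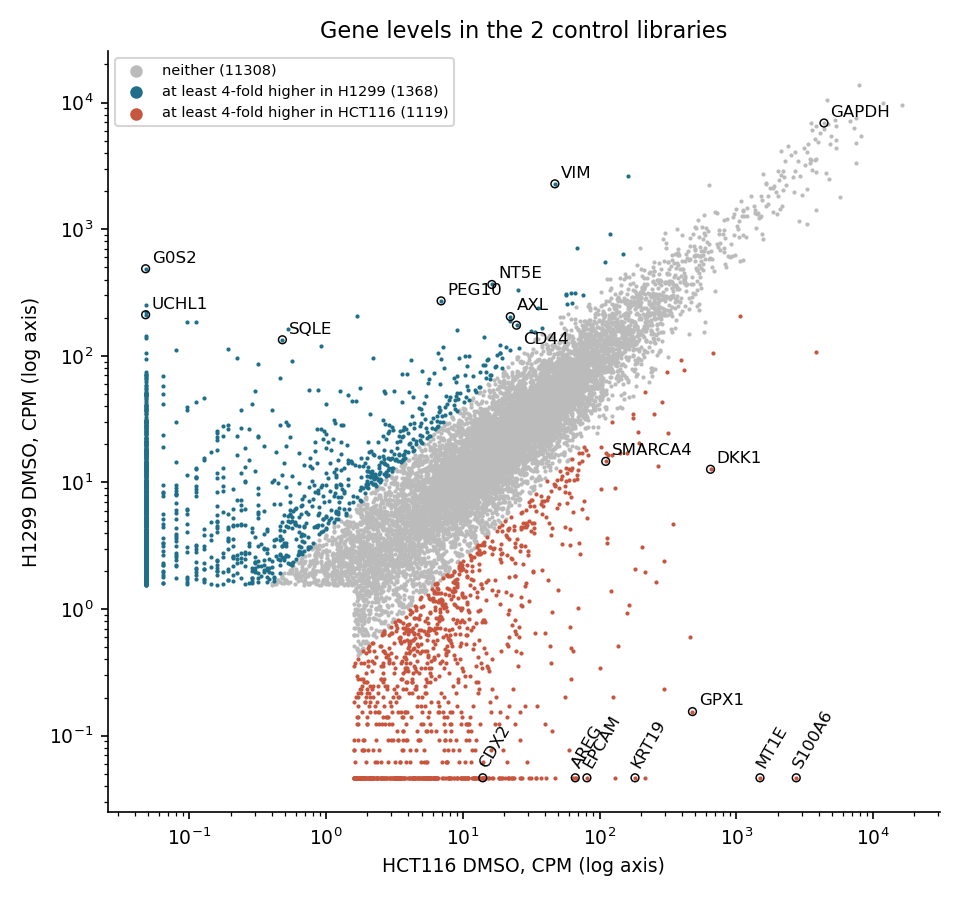
Each point is 1 of the 13795 genes compared, with its CPM in the HCT116 DMSO library on the horizontal axis and in the H1299 DMSO library on the vertical axis, both log axes, and counts below 3 are drawn at 3. Most genes lie along the diagonal, 1368 lie at least 4-fold above it and 1119 at least 4-fold below it, and G0S2, UCHL1, S100A6 and MT1E sit at the floor of 1 library.

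Abundant genes at least 4-fold higher in H1299 included several of the cytoskeleton and cell surface. VIM, the intermediate filament vimentin, had 147273 counts in H1299 and 2947 in HCT116, a 48.5-fold higher CPM. TPM1, an actin-binding tropomyosin, had 45752 and 4271 counts. NT5E, the surface nucleotidase CD73, had 23621 and 1020 counts. COTL1, which binds actin filaments, followed with 20415 and 3888. CYR61, a secreted matrix protein and YAP target, had 21313 and 1573 counts. Beside these stood SNHG5, a small nucleolar RNA host gene (59483 and 7463), ATOX1, a copper chaperone (40852 and 9297), and MYEOV2 (35804 and 6852). RPL18, a ribosomal protein gene, was listed with 170467 and 10135 counts, but names that join it with another gene held a further 1321 and 162969, and with those added its log2 ratio was -0.05.

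Further genes were present in H1299 and at or near 0 in HCT116. UCHL1, a neuronal ubiquitin hydrolase, had 13620 and 0 counts, RPL39L, a testis-enriched ribosomal protein paralog, 16405 and 0, and TM4SF1, a tetraspan membrane protein, 14364 and 3. TUSC3, a subunit of the oligosaccharyltransferase, had 3259 counts in H1299 and 1 in HCT116. PLBD1 (3226 and 1) and the long noncoding DSCR8 (9217 and 0) showed the same contrast. UCHL1 was counted in 86.2% of H1299 cells and in none of the 3658 HCT116 cells.

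Genes higher in HCT116 were of several kinds. MT1E, a metallothionein that binds zinc and copper, had 2 counts in H1299 and 93125 in HCT116. GPX1, a glutathione peroxidase, had 10 and 29881, and PRDX2, a peroxiredoxin, had 1 and 13492. Both peroxidases were thus near 0 in H1299 only. DKK1, a secreted Wnt inhibitor and itself a Wnt target, had 820 and 40496 counts. MDK, a heparin-binding growth factor, had 6757 and 42488, and GAL, the neuropeptide galanin, 39 and 28552. SAT1, which acetylates polyamines, had 4989 and 26103. MALL (1 and 4204) and RHOD, a small GTPase (1 and 1897), were nearly confined to the HCT116 library. RPL22L1, a ribosomal protein paralog (13293 and 66239), was an abundant gene of this group present in both.

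The epithelial list was higher in HCT116 almost throughout. Of 38 members, 30 reached the count minimum; 26 were at least 4-fold higher in HCT116, 2 in H1299 and 2 in neither, with a median log2 ratio of -5.95 against 0.11 over all genes. CLDN7 and CLDN4, tight junction claudins, had 8 and 10 counts in H1299 and 2504 and 1627 in HCT116. RAB25, an epithelial vesicle GTPase, had 0 and 1478. ESRP1 and ESRP2, the splicing factors of epithelial cells, had 6 and 4 counts in H1299 and 786 and 722 in HCT116. SPINT2, a membrane protease inhibitor (70 and 10294), DSP, the desmosomal linker desmoplakin (237 and 7077), and LSR, a tricellular junction protein (214 and 4403), were present in H1299 at low levels. Against the list's direction went CLDN1, with 562 counts in H1299 and 0 in HCT116, and AP1M2, an epithelial sorting adaptor, with 3401 and 79. CDH1, which encodes E-cadherin, had 0 counts in H1299 and 50 in HCT116, under the minimum.

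The mesenchymal list divided. Of 46 members, 30 were compared, with 13 higher in H1299, 4 higher in HCT116 and 13 in neither, and a median log2 ratio of 1.20. Besides VIM, TPM1, NT5E and AXL, H1299 held the transcription factors ZEB2 (1309 and 0) and TWIST1 (312 and 0) and the N-cadherin gene CDH2 (901 and 0). ZEB1 was present in both lines, with 1794 and 954 counts and a log2 ratio of 0.87. Higher in HCT116 were S100A4 (176 and 4528), the collagen gene COL1A1 (8 and 510) and the transcription factors SNAI1 (44 and 494) and SNAI2 (6 and 179). The transcription factors linked to the mesenchymal state were thus not all higher in the same line. CAV1, the caveolar coat protein, had 21747 and 10097 counts, within the threshold.

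In thinned cells the mesenchymal list summed to a median of 47 counts in H1299 and 10 in HCT116, and the epithelial list to 1 and 8. Mesenchymal counts exceeded epithelial counts in 3269 of 3269 H1299 cells. In HCT116 they did so in 2065 of 3303 cells, and epithelial counts were the larger in 1021. Genes within the threshold made up much of the HCT116 mesenchymal sum: the mean per thinned cell was 3.03 counts for TPM2, a tropomyosin, and 1.62 for CAV1, against 0.489 for VIM. VIM was counted in 99.97% of thinned H1299 cells and 22.7% of thinned HCT116 cells, and in 100% and 28.98% before thinning. Within HCT116 its counts were concentrated: the 165 thinned cells with most VIM, 5% of the cells, held 56.6% of its counts, where the 163 such H1299 cells held 12.6%. Of the 3303 HCT116 cells, 18 had at least 10 VIM counts. Their median S100A6 count was 27, against 25 in the other HCT116 cells, and their median epithelial sum was 4.5 against 8. Whether any of them were doublets was not tested. The plot of both lists in each cell shows 2 clouds with little contact.

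**Figure D2:**
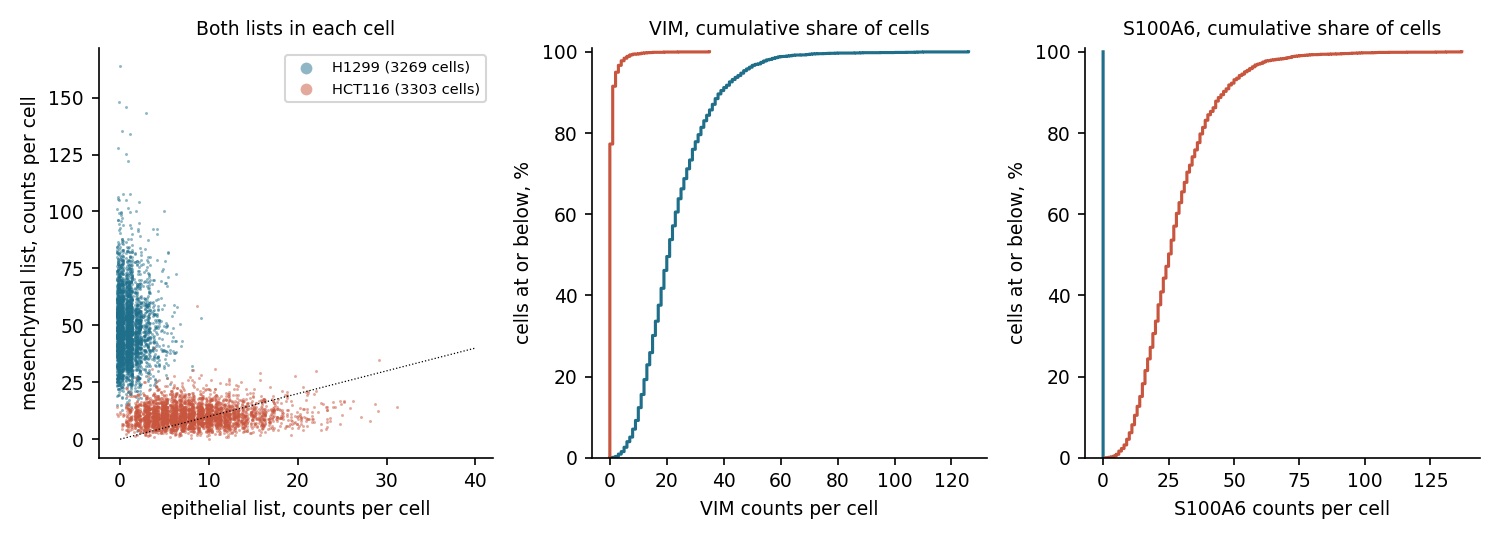
The left panel plots, for each cell thinned to 10100 counts, the summed counts of the epithelial list (horizontal) and the mesenchymal list (vertical), with a small random shift to part overlapping points and a dotted line of equality, and the middle and right panels give the percentage of cells at or below each count of VIM and S100A6, with H1299 in blue and HCT116 in red. All 3269 H1299 cells lie above the line of equality, while HCT116 cells lie on both sides, and S100A6 is 0 in every H1299 cell.

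Tissue-of-origin markers were sparse in both lines. Among 35 intestinal genes, only 3 were compared: CDX2, the intestinal homeobox factor, had 1 count in H1299 and 875 in HCT116 and was the only one past 4-fold. CDX1, TFF3 and CEACAM5 had 0 counts in both libraries, and LGR5, the crypt stem cell receptor, had 1 and 0. Of 26 lung genes, 6 were compared and 2 were higher in H1299: SOX2 (113 and 3), a stem cell factor, and ABCA3 (909 and 169), a surfactant lipid transporter. NKX2-1, the defining lung factor, had 4 counts in H1299 and 11 in HCT116. The label of lung origin thus rested on few of its markers in these data. Among 22 neuroendocrine genes 7 were compared and 2, UCHL1 and the granin CHGB (364 and 12), were higher in H1299. Over features without a number the 2 became 5. Over all genes the shares were 9.92% in H1299 and 8.11% in HCT116, and these 3 lists had few members compared.

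Keratins split by gene. KRT19, the simple-epithelial keratin, had 3 counts in H1299 and 11360 in HCT116, in 2 and 2924 cells. KRT8 (6255 and 12031) and KRT18 (16475 and 14359), the pair of simple epithelia, differed by less than 4-fold. KRT15 (1835 and 83) and KRT80 (1059 and 227) were higher in H1299. Of 9 S100 genes compared, 4 were higher in HCT116 and none in H1299, against 8.11% and 9.92% of all genes. The 4 were S100A6, S100A4, S100A14 (0 and 512) and S100A16 (401 and 4680). S100A10, the annexin A2 partner, was abundant in both at 49238 and 56924 counts. Metallothionein MT1F (0 and 1964) followed MT1E, while MT2A, the most widely expressed member, had 91986 and 241126 counts and lay within the threshold.

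Receptor genes split by family. Of 23 receptor tyrosine kinases compared, 10 were higher in HCT116 and 2, AXL and ROR1 (311 and 65), in H1299. By comparison, 8.11% of all genes passed the threshold towards HCT116 and 9.92% towards H1299, so the 2 are near the latter share. ROR2, a Wnt5a receptor, had 5 and 772 counts, PTK7 285 and 1738, ERBB3 194 and 1046, and FGFR4 249 and 1294. EGFR (1699 and 795) and MET (1692 and 1394) did not pass 4-fold. The EGFR ligands AREG (0 and 4155) and EREG (0 and 2930) were absent from the H1299 counts, and BTC (8 and 170), another ligand and their neighbour on chromosome 4, was also higher in HCT116. HBEGF (1297 and 470) and TGFA (785 and 268), ligands of the same receptor, were within the threshold. AREG was counted in 42.4% of HCT116 cells. Integrins, the matrix receptors, had 4 of 12 compared higher in H1299 and none in HCT116, with ITGA3 at 7810 and 1163 and ITGA4 at 1545 and 0.

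Genes of YAP and TGF-beta signalling leaned to H1299. The list held mostly targets, but also the ligands TGFB1 and TGFB2 and the receptors TGFBR1 and TGFBR2. Of 15 compared, 8 were past 4-fold in H1299 and 1 in HCT116, with a median log2 ratio of 2.27. TGFB2 (261 and 10 counts) was 1 of the 8. CTGF, a matrix-associated growth regulator, had 4670 and 244 counts, AMOTL2, a YAP-binding angiomotin, 7587 and 1284, and TGFBI, a secreted matrix protein, 474 and 2. F3, the coagulation tissue factor, was the exception at 62 and 808. Wnt targets leaned to HCT116, with 9 of 18 compared higher there and 2 in H1299 and a median of -1.78. Over all genes 8.11% were higher in HCT116 and 9.92% in H1299, so the 2 are near the share over all genes. The 9 included the feedback inhibitors NKD1 (10 and 505), NOTUM (37 and 507), AXIN2 (41 and 277) and RNF43 (1 and 121) as well as DKK1. CD44, a hyaluronan receptor (11267 and 1545), and LEF1, a transcription factor of the pathway (119 and 0), were higher in H1299. MYC (9136 and 10540) and CCND1 (16984 and 16187) were close in both lines.

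Among 16 tumour suppressors 1 was higher in each line, below the shares of 9.92% and 8.11% over all genes: TUSC3, named above, in H1299, and SMARCA4 in HCT116. SMARCA4, the chromatin remodeller BRG1, had 947 counts in H1299 and 6937 in HCT116, a log2 ratio of -2.92 (-3.02 to -2.82). Of 9 DNA repair genes listed, mostly of mismatch repair, MSH3 alone was called, higher in H1299 (2557 and 416), which is near the share over all genes.

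**Figure D3:**
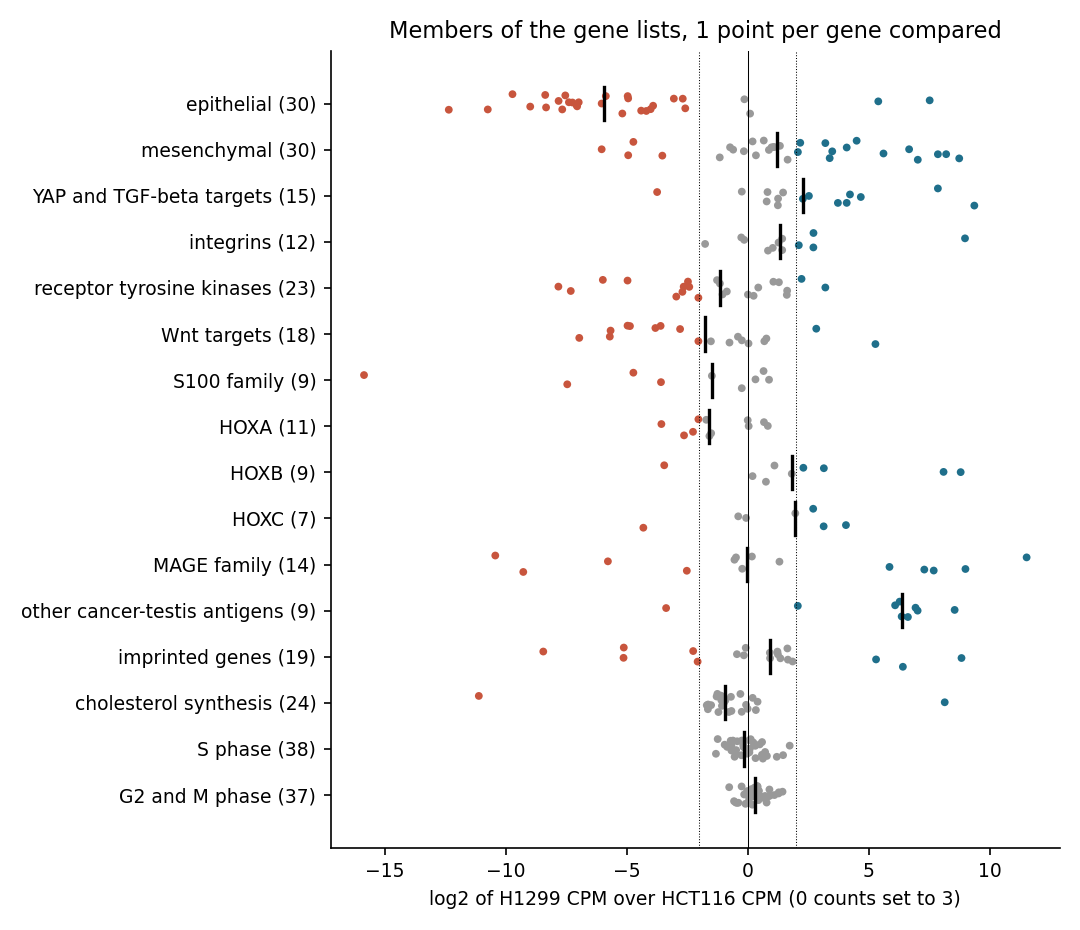
Each point is a gene of the named list that had at least 100 counts in one library or the other, placed by its log2 ratio of H1299 CPM over HCT116 CPM, with 0 counts set to 3, blue and red for at least 4-fold higher in H1299 and in HCT116, grey for neither, black bars for medians, dotted lines at 4-fold and genes compared in brackets. The epithelial median lies at -5.95 and the mesenchymal median at 1.20, while no S phase or G2 and M phase gene passes 4-fold.

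Homeobox clusters differed by cluster, beside shares over all genes of 9.92% higher in H1299 and 8.11% in HCT116. Single calls in clusters this small are not read as a trait of the cluster. In the HOXA cluster 4 of 11 compared were higher in HCT116 and none in H1299, with HOXA9 at 838 and 3914 counts. In the HOXB cluster 4 of 9 were higher in H1299, led by HOXB2 (5574 and 20), whereas HOXB13, at the far end of that cluster, had 53 and 564. In the HOXC cluster 3 of 7 were higher in H1299, among them HOXC8 (2253 and 132) and HOXC10 (1343 and 149), and 1 in HCT116, HOXC5 (6 and 116). HOXB7 (4883 and 4147) and HOXC9 (1512 and 1544) were within the threshold.

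Germline antigens were counted in both lines, in part as the same members. Of 14 MAGE genes compared, 5 were higher in H1299, 4 in HCT116 and 5 in neither. Over all genes the shares were 9.92% in H1299 and 8.11% in HCT116. MAGEA2, 1 of the 4, turned direction over features without a number (-2.52 to 0.43 on the log2 scale). MAGEA4 had 8997 and 0 counts, MAGEA1 1565 and 3 and MAGEA6 2410 and 15, while MAGEB2 had 0 and 4013 and MAGEA9B 2 and 1202. MAGEA12 (1306 and 1129, with a further 1490 and 296 under joined names) and MAGEA3 (2361 and 928) were within the threshold. MAGE copies are near-identical in sequence, so counts of single MAGEA members are uncertain. Of 9 other cancer-testis genes compared, 8 were higher in H1299, including PRAME (4255 and 989), TEX15 (1149 and 0), the meiotic cohesin STAG3 (1708 and 17) and CTCFL (1000 and 8); over features without a number the 8 became 5. TEX14 was the exception at 13 and 131. Imprinted genes split as well. Of 19 compared, 3 were higher in H1299, 5 in HCT116 and 11 in neither, with a median log2 ratio of 0.92. The 3 were PEG10 (17527 and 434), GNAS-AS1 (466 and 1) and PEG3 (261 and 0). Among the 5 were PHLDA2 (5998 and 24540), MEST (92 and 3115) and GRB10 (0 and 1017).

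Some lists held 1 gene past the threshold in a direction, shares near or below the 9.92% and 8.11% of all genes. Of 24 cholesterol synthesis genes all were compared, with 1 higher in H1299 and 1 in HCT116. SQLE, squalene epoxidase, had 8644 counts in H1299 and 30 in HCT116. FDFT1, the preceding enzyme, had 6318 and 9821. Among 18 deacetylases HDAC9 alone passed 4-fold, at 1556 and 62 counts. Of 11 nucleic acid sensors compared, only MB21D1, the DNA sensor cGAS, passed it, at 1795 and 0. By contrast, of 18 genes of MHC class I presentation compared, 4 were higher in H1299, including the immunoproteasome subunits PSMB8 (721 and 35) and PSMB9 (1508 and 230), and 1 in HCT116, NLRC5 (27 and 172). B2M (13733 and 12965) was within the threshold. Of 16 detoxification genes compared, 4 were higher in H1299 and 6 in HCT116. Among them CYP24A1, the vitamin D hydroxylase, had 22 and 6281 counts, and ABCB1, the drug efflux pump, 225 and 1. The cell cycle lists stayed within the threshold: of 38 S phase and 37 G2 and M phase genes, all were compared and none passed 4-fold. DNA methylation genes also stayed within it, 16 of 16, with DNMT1 at 14762 and 12600 counts.

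Zinc finger genes formed the longest runs of neighbours called in 1 direction. Their products are mostly repressors with a KRAB domain, which bind transposable elements and recruit the corepressor TRIM28, and many lie in clusters on chromosome 19. This set, names beginning ZNF, ZFP, ZSCAN or ZKSCAN followed by a number, was chosen after its values were seen. On chromosome 19, 220 were compared, of which 116 (52.7%) were higher in H1299 and 1 was higher in HCT116, with a median log2 ratio of 2.78. Elsewhere in the genome, 28 of 251 (11.2%) were higher in H1299 and 10 in HCT116. The other protein-coding genes of chromosome 19 had 36 of 688 (5.23%) higher in H1299 and 84 in HCT116. Of the 220, 69 had 0 counts in HCT116 and none had 0 in H1299. Over features without a number alone, 117 of 206 were higher in H1299. TRIM28 had 5957 and 12667 counts, within the threshold.

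**Figure D4:**
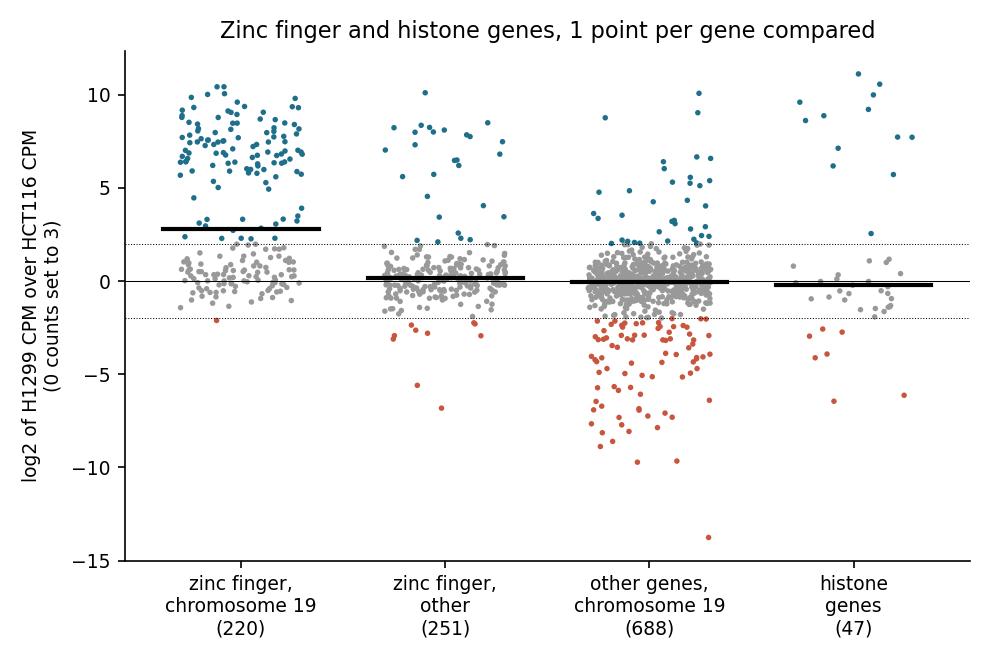
Each point is 1 protein-coding zinc finger gene on chromosome 19 or elsewhere, 1 other protein-coding gene of chromosome 19, or 1 histone gene, placed by its log2 ratio of H1299 CPM over HCT116 CPM with 0 counts set to 3, colours as in the plot of the gene lists, black bars at medians and dotted lines at 4-fold. The chromosome 19 zinc finger genes form 2 groups, one around 0 and one mostly above 5, with a median of 2.78. The 69 at 0 counts in HCT116 needed at least 100 counts in H1299 to be compared. With the 0 set to 3 counts, their place above 5 is fixed by these settings.

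Runs of neighbours made this visible. A run is a row of adjacent protein-coding genes compared that were all called in 1 direction, placed by symbol on GENCODE v29 (GRCh38). The longest was 14 genes, ZFP82 to ZNF585A at chr19:36383120-37172741, with a median log2 ratio of 8.32. Then came 13 genes from ZNF441 to ZNF442 (chr19:11767000-12365905, median 6.54) and 10 from ZNF506 to ZNF85 (chr19:19785839-20950697, median 7.70). Within the first run ZFP82 had 1722 counts in H1299 and 0 in HCT116, ZNF260 1946 and 0, and ZNF529 1963 and 0. Between the first run and the next along the chromosome lay ZNF585B, ZNF383, HKR1 and ZNF527, all within the threshold. On all chromosomes, 83 zinc finger genes had 0 counts in HCT116. With inhibitors, 82 of them had a count in HCT116 and 36 (43.4%) reached 100, with a median of 87 counts. Of the 351 other genes compared that had 0 counts in untreated HCT116, 338 had a count and 81 (23.1%) reached 100, with a median of 31. Both sets were chosen on the untreated counts, and their median H1299 counts differed, at 421 and 326.

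Histone genes of the chromosome 6 cluster differed one by one. Most of their transcripts lack a poly(A) tail. A run of 7 neighbours, HIST1H2BG to HIST1H2BI at chr6:26215159-26273356, were all higher in H1299, among them HIST1H3G (3131 and 0) and HIST1H2BH (2389 and 0). HIST1H1B, a linker histone further along, had 6838 counts in H1299 and 0 in HCT116. By contrast HIST1H4C (93526 and 130469) and HIST1H1E (11522 and 17762) lay within the threshold. HIST1H3A (11 and 748) and HIST1H4D (84 and 1417) were higher in HCT116. Over 47 histone genes compared on all chromosomes, 13 (27.7%) were higher in H1299 and 7 (14.9%) in HCT116, against 9.92% and 8.11% of all genes. Their median log2 ratio was -0.23, on the HCT116 side. This set too was chosen after its values were seen, and its members are close in sequence. HIST1H2AM (90 and 7637) was among the 7, but joined names, which were left out, held 43.5% of its counts over both libraries.

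Shorter runs included the 4 genes EREG, AREG, BTC and PARM1 (chr4:74365143-75050115, median -7.84) and AP1G2, DHRS2, DHRS4 and DHRS4L2 (chr14:23559565-24006408, median -5.06), both higher in HCT116. DHRS2, a short-chain reductase, had 156 and 18511 counts. On X, PASD1, MAGEA4, GABRE, MAGEA10 and GABRA3 (chrX:151563622-152451358, median 7.67) were all higher in H1299. GNGT1, TFPI2 and GNG11 on chromosome 7 followed, with GNG11 at 7238 and 5 counts and TFPI2, a protease inhibitor, at 2123 and 1.

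Shifts over whole chromosomes were smaller. On chromosome 10 the median log2 ratio over 436 protein-coding genes was -0.50, with 56 (12.8%) at least 4-fold higher in HCT116 and 20 (4.59%) in H1299, against 8.10% each way over all genes placed. Of 1880 windows of 20 neighbouring genes with at least 100 counts in both lines, 13 had a median below -0.90 and 12 of these lay on chromosome 10. Windows start every 5 genes, so neighbouring ones share genes. The cut of -0.90 was not set in advance, and the next windows, on chromosomes 19 and 16, had medians of -0.88 and -0.87. In the window from ZDHHC6 to PRDX3 (chr10:112424428-119178833) the median was -1.06 and no gene lay above 0. Chromosome 6 stood at the other end with a median of 0.56 over 638 genes, and the window from CDK6 to ARPC1B (chr7:92604921-99394816) had a median of 1.39 with 19 of 20 genes above 0. Over all 11614 genes placed the median was 0.06. DNA copy number was not measured here, and its part in these medians was not tested.

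Genes that were abundant in 1 line and nearly silent in the other were listed by a threshold of at least 1000 counts against at most 10. In H1299, 50 genes were silent by this rule, 18 of them at 0; in HCT116, 146 were silent and 91 at 0. After DAC and SB939, 31 of the 50 reached 100 counts in H1299, with a median of 182.5, against 3.41% of the 22967 genes with at most 10 counts in untreated H1299. In HCT116 79 of the 146 did so, with a median of 122 counts, against 2.96% of 23586. Those backgrounds include genes used by neither line, and the untreated counts chose the silent genes, so no ratio is drawn. The treated libraries held 62428673 counts in H1299 and 38927267 in HCT116. S100A6 went from 0 to 5569 counts in H1299, GPX1 from 10 to 10453, MT1E from 2 to 16996 and KRT19 from 3 to 2634. EPCAM reached 279, PRDX2 873 and AREG 1081. In HCT116, UCHL1 went from 0 to 3193, RPL39L from 0 to 1223 and MAGEA4 from 0 to 624. Other silent genes stayed low: G0S2 reached 13 and TM4SF1 30 in HCT116, and EREG 34 in H1299.

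Promoters of 2 genes silent in H1299, 2 silent in HCT116 and 2 zinc finger genes of the longest run are shown because CpG sites, the letters CG, are where DNA methylation sits. Each is the 250 bases before the RefSeq start (GRCh38.p14), 5′ to 3′ on the gene's strand, with every CG in capitals.
S100A6: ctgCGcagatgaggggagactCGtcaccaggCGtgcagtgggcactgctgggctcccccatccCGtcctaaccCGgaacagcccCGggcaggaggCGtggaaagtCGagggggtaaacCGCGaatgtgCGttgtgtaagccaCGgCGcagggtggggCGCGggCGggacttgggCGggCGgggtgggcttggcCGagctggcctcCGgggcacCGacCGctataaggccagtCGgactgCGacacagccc
GPX1: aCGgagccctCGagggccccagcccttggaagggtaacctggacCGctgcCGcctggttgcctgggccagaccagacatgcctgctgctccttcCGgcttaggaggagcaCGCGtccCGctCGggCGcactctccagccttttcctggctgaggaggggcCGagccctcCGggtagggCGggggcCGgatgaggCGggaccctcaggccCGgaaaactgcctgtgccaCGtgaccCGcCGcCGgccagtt
G0S2: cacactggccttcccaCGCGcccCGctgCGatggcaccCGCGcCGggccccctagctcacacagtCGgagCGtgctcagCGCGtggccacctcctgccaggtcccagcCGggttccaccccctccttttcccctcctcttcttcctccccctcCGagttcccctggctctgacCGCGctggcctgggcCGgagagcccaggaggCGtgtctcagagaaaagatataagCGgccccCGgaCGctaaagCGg
UCHL1: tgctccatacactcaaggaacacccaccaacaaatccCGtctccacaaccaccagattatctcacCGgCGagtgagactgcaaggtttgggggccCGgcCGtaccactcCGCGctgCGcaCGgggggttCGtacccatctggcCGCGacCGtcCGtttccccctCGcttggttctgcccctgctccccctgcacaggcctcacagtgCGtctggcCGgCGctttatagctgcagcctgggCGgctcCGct
ZFP82: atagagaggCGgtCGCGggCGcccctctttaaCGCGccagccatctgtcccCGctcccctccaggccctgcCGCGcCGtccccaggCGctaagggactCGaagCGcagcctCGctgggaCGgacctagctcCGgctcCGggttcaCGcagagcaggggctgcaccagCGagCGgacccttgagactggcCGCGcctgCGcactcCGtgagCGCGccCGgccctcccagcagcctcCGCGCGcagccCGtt
ZNF260: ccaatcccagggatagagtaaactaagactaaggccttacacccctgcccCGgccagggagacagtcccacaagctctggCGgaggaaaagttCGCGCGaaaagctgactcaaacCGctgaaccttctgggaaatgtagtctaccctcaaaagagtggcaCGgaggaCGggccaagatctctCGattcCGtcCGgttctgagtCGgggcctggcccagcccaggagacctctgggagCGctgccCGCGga
S100A6 (chr1:153535992-153536241, minus strand) held 24 CG and GPX1 (chr3:49358354-49358603, minus strand) 20. G0S2 (chr1:209675162-209675411, plus strand) held 21 and UCHL1 (chr4:41256678-41256927, plus strand) 20. ZFP82 (chr19:36418645-36418894, minus strand) held 31 and ZNF260 (chr19:36528272-36528521, minus strand) 15. For comparison, 52.2% of 35116 RefSeq promoters of that length held at least 10, and the median was 11. At least as many CG as in S100A6 were held by 23.7% of those promoters, and as in GPX1 or UCHL1 by 32.45%. The shares were 30.2% for G0S2, 10.85% for ZFP82 and 42.9% for ZNF260. CG reads the same on both strands. These counts describe sequence; methylation itself was not measured here.

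Over the chromosome 19 zinc finger genes, 62 of the 69 at 0 counts in HCT116 had a RefSeq promoter, with a median of 16.5 CG. The 47 higher in H1299 but above 0 in HCT116 had a median of 13, from 40 matched genes. The 103 within the threshold had 17, from 93. Zinc finger genes that were at 0 in HCT116 and those that were not called therefore had promoters of similar CG number. The same check over the silent genes was void, because 30 of the 50 and 80 of the 146 matched a promoter by symbol, under 80%.

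Transposable elements made up 0.199% of counts in H1299 (0.198% to 0.200%) and 0.319% in HCT116 (0.318% to 0.321%), so they were 1.61-fold higher in HCT116 (1.595 to 1.617). Over the 243 element classes listed in both libraries the log2 ratio was -0.28, against -0.68 over all classes. A class, as the file names it, is a family with a position number, and those under 20 counts in a library were not listed. The element mix differed more than the total. L1 elements, the long interspersed retrotransposons, made up 44.1% of element counts in H1299 and 15.6% in HCT116, at 876.0 and 498.1 CPM (log2 ratio 0.81). Over classes listed in both, L1 made up 42.6% and 24.1%, with a log2 ratio of 0.54. Alu elements, short retrotransposons, made up 1.63% and 33.5%, but 11 and 23 Alu families were listed, and over classes listed in both the Alu log2 ratio was 0.17.

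**Figure D5:**
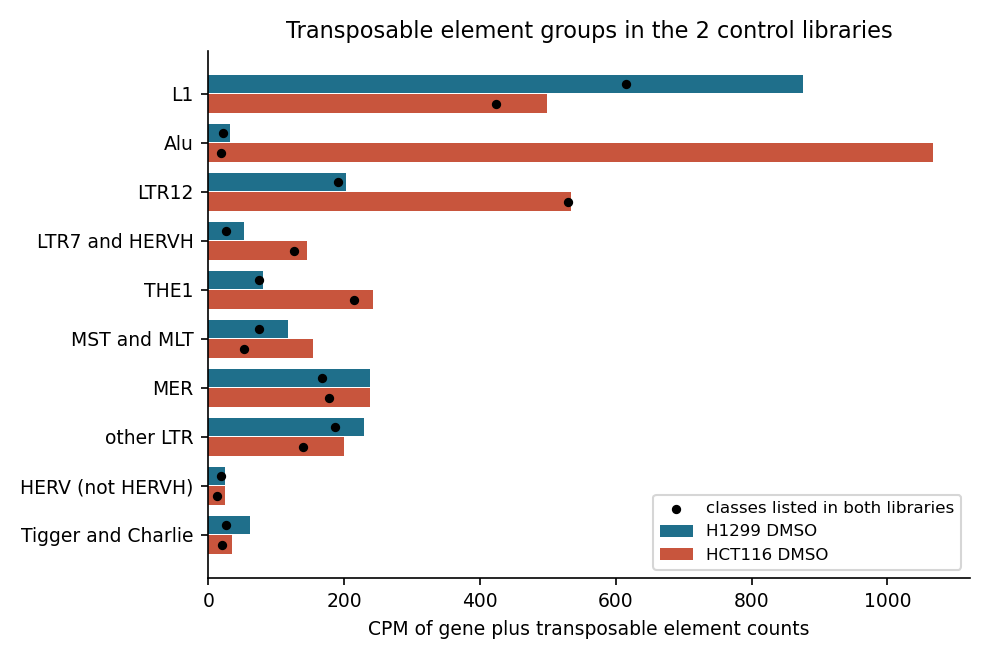
Bars give the CPM of each group of transposable element families in the H1299 (blue) and HCT116 (red) DMSO libraries, from 0, and black points give the part from classes listed in both libraries. L1 is the largest group in H1299 at 876.0 CPM and Alu in HCT116 at 1068 CPM, but nearly all of the Alu bar lies outside the shared classes.

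Of 139 families listed in both and reaching 100 counts, 14 (10.1%) were at least 4-fold higher in H1299 and 12 (8.63%) in HCT116; over classes listed in both libraries these became 3 and 8. LTR9 had 5887 counts in H1299 and 145 in HCT116, a log2 ratio of 5.30, and MER52A 855 and 36. In the other direction LTR7, the promoter of HERVH proviruses active in pluripotent cells, had 271 and 6848, a log2 ratio of -4.70. HERVH itself had 1514 and 1388, within the threshold. LTR12D had 321 and 13191, THE1B 1590 and 8139 and THE1D 557 and 4670. Single loci carried much of this: in HCT116, 1 locus held 12679 of the 13191 LTR12D counts and 1 locus held 78.7% of the THE1B counts. Without the top locus of each family, the log2 ratio of LTR12D was -1.15, that of THE1B -0.19, that of LTR7 -3.81, that of THE1D -2.14, that of LTR9 4.71 and that of MER52A 2.33 (from 4.53). The 10 loci with most counts held 18.6% of element counts in H1299 and 21.96% in HCT116, and none was among the top 10 of both. The LTR50 locus in the H1299 top 10 was also abundant in HCT116, with 1665 and 2232 counts. With the libraries thinned to the same total and over classes listed in both, a restriction chosen after seeing the data, 13217 loci had a count in H1299 and 12760 in HCT116. Of these 5530 were in both, 41.8% of the former and 43.3% of the latter. Over all listed classes the numbers were 18732 and 40026, with 5850 in both (31.2% and 14.6%).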

How the data were processed

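Droplet 5′ single-cell libraries of 4 samples were deposited as 2 long tables of whole-number counts per cell and feature, one for genes and one for transposable elements. The authors used CASAVA, STAR and GRCh38/hg38, per the submitters' processing notes; versions, the counter, and whether counts were collapsed by molecular identifier could not be taken from the labels or file headers. As deposited, features with a number after the gene name are listed only from 10 counts per library, joined names hold several genes (11.4% and 17.3% of gene counts) and were left out, and what the numbers mean is not stated.

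Cells were assigned to libraries by the label in their barcode names. Counts were summed per library and gene and scaled to CPM over gene plus element counts. A gene was compared from 100 counts in the higher library and called at 4-fold; a library at 0 was set to 3 counts. Ratios have exact conditional binomial intervals and shares exact Clopper-Pearson intervals, at 95%. Cells were thinned without replacement to 10100 counts; no doublet caller was run. Genes named were the 4 markers, the 10 of highest CPM and the 10 of highest ratio in each direction, up to 4 per list and direction, and members within the threshold; other genes, and the zinc finger and histone sets, were chosen after their values were seen. The members and the 40 gene lists were chosen with earlier results of these data known. Positions came from GENCODE v29, where 12008 of 13795 compared genes matched by symbol. The scripts, checked on simulated data, used Python 3.11.15, NumPy 2.4.6, SciPy 1.17.1, pandas 2.3.3 and matplotlib 3.10.9. Alternatives changed the thresholds, denominator, features, loci and cells. Results that rest on some withheld items are not reported here.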

Additional observations from a re-analysis of the deposited data

How the results depend on the processing

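No paired analysis was possible because each line had 1 library. Genes higher in H1299 and in HCT116 numbered 2833 and 2092 at 2-fold and 937 and 699 at 10-fold. From 20 counts they numbered 2250 and 1855, and from 1000 counts 389 and 266. They were within 1.5 times of 1368 and 1119 under the other settings run. Over features without a number, a setting chosen after seeing the data, they were 1282 and 805. Of those, 1124 and 782 were among the main calls. With numbered features kept only where both libraries listed them, they were 1208 and 900. Of those, 1171 and 887 were among the main calls. The log2 ratio of RPL18 went from 4.03 to -0.0538 with joined names added, and the log2 ratio of MAGEA2 from -2.52 to 0.43 over features without a number. The transposable element log2 ratio of -0.68 was -0.28 over classes listed in both libraries, -0.63 without the 10 top loci of each library, -0.79 without mitochondrial and ribosomal protein genes in the denominator, -0.66 without the 5% of cells with most counts, -0.71 without cells above 25% mitochondrial counts and -0.64 as a mean over cells. Element families higher in H1299 and in HCT116 (14 and 12) numbered 37 and 25 at 2-fold, 4 and 5 at 10-fold, 5 and 5 from 1000 counts, 3 and 8 over shared classes, and 7 and 8 without each family's top locus. Thresholds, fewer features and fewer loci change counts by construction; other causes were not tested. Genes under 100 counts in both lines were not compared, and with 1 library per line no difference can be set against replicate spread.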
